A study of Macaca mulatta with 6 samples.

Results

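DNA repair genes were followed in samples taken as serotonin neurons of female rhesus macaques, cut from the dorsal raphe nucleus with a laser. The members are the probe sets that the array annotation ties to a single gene symbol, where that symbol belongs to the XRCC, ERCC, MSH, MLH, PMS, FANC, PARP or RAD names or to a short list of further repair genes. The rule goes by name and not by values, though it was set with earlier results of these data known. The rule found 105 probe sets for 57 genes, of 52766 probe sets that measure transcripts and 24956 that carry 1 gene symbol.

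Each of 6 arrays measured 1 monkey, and each treatment had 2. The groups were monkeys given estrogen and progesterone, monkeys given estrogen, and monkeys given placebo, all with steroid capsules or placebo under the skin for 1 month. The placebo samples are tagged Ovx, which probably stands for ovariectomized. Whether the hormone-treated monkeys were also ovariectomized, and the ages of the animals, are not stated in the labels. The values are linear array signals, and the 2 arrays of a group are separate animals, so the small number of animals limits the precision of every difference.

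Cells repair DNA by several routes. Glycosylases cut out damaged bases in base excision repair, nucleotide excision repair removes a stretch of strand around a bulky lesion, and mismatch repair corrects errors of replication. Double-strand breaks are rejoined end to end by the Ku proteins and their partners or copied from the sister strand by homologous recombination. Neurons no longer divide, and repair of oxidized bases, of lesions in transcribed genes and of broken ends are the routes best known in them. The roles named below are those established in human, mouse or yeast cells.

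The arrays, deposited after scaling to a common target, differed in the signals of their control probe sets and in their medians. An array's floor was set at the 95th percentile of its 59 controls for bacterial and tag sequences, and it was at a signal of 74.9 and 283 with both hormones, 29.99 and 51.6 with estrogen, and 216 and 221 with placebo. Of all probe sets, 49.6% and 28.7% lay above the floor with both hormones, 62.2% and 58.5% with estrogen, and 37.3% and 36.3% with placebo. Median signals were 73.8 and 170 with both hormones, 49.0 and 68.9 with estrogen, and 161 and 160 with placebo. They were higher on the 3 arrays with the smallest shares above the floor. By share above the floor, the second array of the combined treatment and both placebo arrays are called low-signal, and the other 3 high-signal. That second array stood apart: over the 49 tested member probe sets it correlated with its own partner at r of 0.105, against 0.811 for the estrogen pair and 0.669 for the placebo pair. The first array of that treatment correlated with the estrogen arrays at 0.927 and 0.841. Here r runs across probe sets, and those do not count as independent replicates. Of serotonin neuron markers 5 of 8 were named. FEV and GATA3 passed the floor on all 6 arrays, the vesicle transporter SLC18A2 on 4, TPH2, the tryptophan hydroxylase of these neurons, on the estrogen arrays alone, and LMX1B on 1. TPH2 signals were 12.5 and 243 with both hormones, 54.0 and 63.2 with estrogen, and 126 and 211 with placebo. With estrogen they were thus below both placebo arrays, and passed only the lower floors there. The summed signal of the 5 markers was 1118 and 1749 with both hormones, 1329 and 707 with estrogen, and 1172 and 1363 with placebo. Astrocyte markers, 5 of 7 named, summed higher than the serotonin neuron markers on every array, and all 5 passed the floor on the 3 high-signal arrays. Their signals summed to 46983 and 2321 with both hormones, 42252 and 46061 with estrogen, and 14199 and 14311 with placebo. Oligodendrocyte markers, 2 of 6 named and both above the floor on all arrays, summed to 48278 and 2349 with both hormones, 34940.2 and 51122 with estrogen, and 32403 and 45620 with placebo. Erythrocyte markers, 2 of 3 named, summed to 172 and 501 with both hormones, 65.5 and 141 with estrogen, and 804 and 601 with placebo, and neither passed the floor on all 3 high-signal arrays. Microglia markers, 6 of 6 named, summed to between 1372 and 4271 over the arrays, and endothelial markers, 5 of 5, to between 679 and 925. General neuron markers, 5 of 8 named, summed to 17379 and 1812 with both hormones, 20029 and 22411 with estrogen, and 4498 and 7477 with placebo. Summed over 5 of 6 markers of dividing cells, the signal was 566 and 491 with both hormones, 472 and 743 with estrogen, and 834 and 836 with placebo. In such captured tissue, fewer cells of a type and less RNA per cell cannot be told apart. The part that RNA of these other cells and array signal had in the differences below was not tested.

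Detection of repair genes followed the arrays. With each gene taken by its probe set of highest mean, 15 of 57 genes were above the floor on both arrays of estrogen and progesterone, 42 on both estrogen arrays and 20 on both placebo arrays. As shares these were 26.3%, 73.7% and 35.1%, beside 27.7% (estrogen and progesterone), 70% (estrogen) and 36.1% (placebo) of all named genes. Only 5 repair genes, MSH6, PARP1, PARP10, XRCC6 and ERCC5, had a probe set above the floor on all 6 arrays. These were 6 of 105 member probe sets, or 5.71%, while 10.1% of all probe sets and 11.9% of those with 1 symbol reached that level. At the other end, 8 genes had no probe set above the floor on any array. They were MSH4 and MSH5, which act in meiotic crossing over, BRCA2 and RAD51B of homologous recombination, PARP11, PARP12, RAD9B and FANCD2OS. By probe set, 23 of 105 members, or 21.9%, passed the floor on no array, beside 19.5% of all and 14.4% of those with 1 symbol. The share of all genes without such a probe set was not counted. Being below the floor does not show that a transcript was absent.

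**Figure D1:**
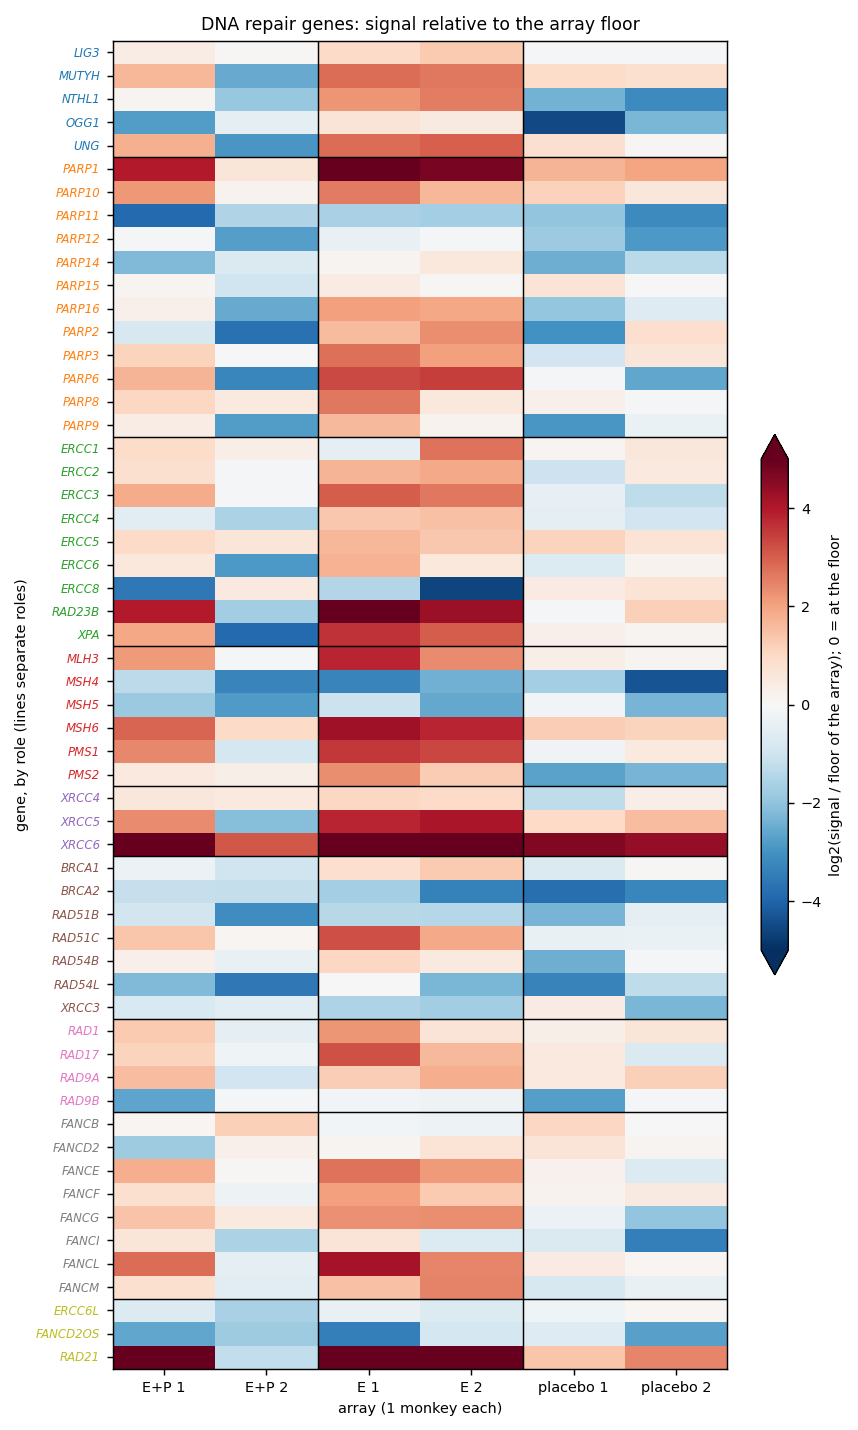
Signal of each of the 57 repair genes (rows, by the probe set of highest mean, grouped by role with label colors per role) on each of the 6 arrays (columns, with E for estrogen and P for progesterone), as the log2 ratio of signal to the floor of that array. Red cells lie above the floor and blue cells below it, colors saturate at the ends of the bar, and XRCC6 is red in all 6 columns while the second array of both hormones is blue for many genes that are red on the estrogen arrays.

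The Ku subunit XRCC6, which with XRCC5 caps broken DNA ends, was far above the floor on every array. Its strongest probe set had 4994 and 2459.6 with both hormones, 3885 and 5157 with estrogen alone, and 5297 and 4587 with placebo. The groups overlapped in these signals. A second XRCC6 probe set, also above the floor on all 6 arrays, had 2008 and 371 with both hormones, 2009.7 and 2711 with estrogen alone, and 800.3 and 583 with placebo. In that one the estrogen arrays were both above the placebo arrays, and the arrays of both hormones fell on either side of them. XRCC5, the larger Ku subunit, had 389 and 64.99 with both hormones, 422 and 881 with estrogen alone, and 426 and 647 with placebo, and only the second array of both hormones was below the floor. XRCC4, which holds the ligase to the joined ends, was above the floor on 5 arrays, with 112 and 394 with both hormones, 61.1 and 100.04 with estrogen alone, and 90.04 and 280.3 with placebo. Its arrays of both hormones were above those of estrogen, and the placebo pair spanned most of that range.

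PARP1, the enzyme that senses strand breaks and builds ADP-ribose chains, had 1180.2 and 433 with both hormones, 1416 and 1369 with estrogen alone, and 696 and 874 with placebo. Both estrogen arrays were above both placebo arrays in signal, while the arrays of the combined treatment lay on either side. After normalization the estrogen and placebo arrays overlapped for PARP1. PARP10, an enzyme that adds single ADP-ribose units, had 338 and 319 with both hormones, 182 and 162 with estrogen alone, and 484 and 326 with placebo, so its estrogen arrays were below all 4 others. Of the 12 PARP genes, 6 were tested, and PARP2, which also answers strand breaks, was not, since its 3 probe sets were below the filter. Those of PARP2 disagreed among themselves: 1 passed the floor with estrogen alone, with 88.2 and 257, and another had 39.5 and 26.3 with estrogen and 284 and 305 with placebo.

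Among mismatch repair genes MSH6, a partner in the complex that finds mispaired bases, was detected everywhere. Its signals were 570.02 and 543 with both hormones, 572 and 722 with estrogen alone, and 504 and 480.4 with placebo, all 6 within a narrow span although the floors differed widely. PMS2, a subunit of the complex that nicks the strand to be corrected, had 105 and 342 with both hormones, 149.6 and 125 with estrogen alone, and 34.2 and 43.7 with placebo. Both hormone groups were above their own floors and both placebo arrays far below theirs. In the human genome PMS2 has close pseudogene copies, and whether this probe set reads such copies was not tested. PMS1 and MLH3 are relatives of PMS2. PMS1 had 400.3 and 153 with both hormones, 351 and 523 with estrogen alone, and 194 and 308 with placebo, and MLH3 had 329.9 and 272 with both hormones, 424 and 267 with estrogen alone, and 263 and 243 with placebo. In PMS1 the estrogen arrays were above both placebo arrays, and those of the combined treatment lay on either side of the placebo pair.

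Base excision repair was represented by 5 genes, 3 of them tested. UNG, which removes uracil from DNA, had 256 and 37.9 with both hormones, 209.9 and 409 with estrogen alone, and 379 and 233 with placebo. MUTYH, which removes adenine paired with oxidized guanine, had 234 and 49.8 with both hormones, 208 and 317 with estrogen alone, and 413 and 389 with placebo. In both genes the second array of the combined treatment was the lowest and the only one below its floor. OGG1, the glycosylase for oxidized guanine itself, had 10.9 and 203 with both hormones, 47.00 and 70.00 with estrogen alone, and 9.41 and 45.4 with placebo, and passed the floor in the estrogen group alone. Its second probe set passed the floor on 1 estrogen array only. NTHL1, which removes oxidized pyrimidines, passed the floor on the 3 high-signal arrays alone. Its signals were 83.2 and 75.7 with both hormones, 139 and 302 with estrogen alone, and 42.2 and 24.3 with placebo. LIG3, the ligase that seals the repaired strand, had 97.4 and 298 with both hormones, 57.6 and 129 with estrogen alone, and 201 and 211 with placebo. APEX1, POLB and XRCC1 had no probe set with their symbol.

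Nucleotide excision repair had 9 genes, of which 8 were tested. XPA, which verifies the damaged strand, had 284 and 19.1 with both hormones, 372 and 422 with estrogen alone, and 259 and 239.8 with placebo. Its second array of both hormones was far below every other array. RAD23B, which steadies the damage sensor XPC, had 1161 and 83.98 with both hormones, 1418 and 1036 with estrogen alone, and 207 and 506 with placebo, with the same array lowest. ERCC1, a subunit of the nuclease that cuts on one side of the lesion, had 139.8 and 351 with both hormones, 21.3 and 335 with estrogen alone, and 236 and 331 with placebo, and the 2 estrogen arrays were the lowest and among the highest. ERCC4, its nuclease partner, was above the floor on the estrogen arrays alone, with 49.97 and 93.5 with both hormones, 77.2 and 142 with estrogen alone, and 160.3 and 114 with placebo. ERCC5, the nuclease for the other side, had 147 and 434 with both hormones, 95.01 and 129.9 with estrogen alone, and 470.4 and 354 with placebo by its strongest probe set. ERCC8, a ubiquitin ligase subunit for repair of transcribed genes, had 6.27 and 401 with both hormones, 10.7 and 2.16 with estrogen alone, and 289 and 357 with placebo, and passed the floor on exactly the 3 low-signal arrays. It was picked out after its values were seen, lay below the filter on low signals and was not tested. ERCC2, the other helicase of the complex that holds ERCC3, had 131 and 264 with both hormones, 96.9 and 192 with estrogen alone, and 104 and 306 with placebo, and ERCC6, which finds stalled RNA polymerase, had 108 and 39.02 with both hormones, 99.7 and 74.7 with estrogen alone, and 134 and 246 with placebo. The groups of ERCC2 overlapped, and in ERCC6 all hormone arrays were below both placebo arrays in signal but not after normalization.

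Of the genes named for single routes, 3 of 7 in homologous recombination, 3 of 4 in the damage checkpoint and 7 of 8 in the Fanconi anemia route were tested. BRCA1, a scaffold of recombination, had 60.5 and 143 with both hormones, 53.4 and 128 with estrogen alone, and 129 and 233 with placebo, above the floor on 3 arrays. BRCA2, a mediator of recombination, had 33.4 and 124 with both hormones, 9.13 and 4.97 with estrogen alone, and 15.8 and 23.2 with placebo, below it on every array. RAD51C, which also acts in recombination, had 198 and 303 with both hormones, 281 and 192 with estrogen alone, and 166 and 174 with placebo, with all hormone arrays above both placebo arrays. The Fanconi genes repair crosslinked strands: FANCL, the ubiquitin ligase of that route, had 513 and 204 with both hormones, 532 and 277 with estrogen alone, and 289 and 236 with placebo, and FANCD2, the protein it marks, had 21.7 and 334 with both hormones, 33.2 and 81.8 with estrogen alone, and 339 and 243 with placebo. For FANCL the 2 animals of each hormone group differed more than the groups did. RAD21, a cohesin subunit that matches the rule by name, had 3190.2 and 121 with both hormones, 4016 and 1929.6 with estrogen alone, and 565 and 1212 with placebo. It was highest on the high-signal arrays and below the floor on the second array of both hormones. RAD50, ATM, ATR and XPC had no probe set with their symbol.

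Of the other Fanconi genes, FANCE, which bridges the core complex to FANCD2, had 263 and 292 with both hormones, 195 and 228 with estrogen alone, and 251 and 138 with placebo, and both arrays of the combined treatment were above all others. FANCF, an adaptor of the core complex, had 129.8 and 236 with both hormones, 124 and 129 with estrogen alone, and 241 and 301 with placebo, with the placebo pair highest. FANCM, a DNA translocase that anchors the core complex, had 129 and 197 with both hormones, 82.6 and 286 with estrogen alone, and 124 and 170.1 with placebo and passed the floor on the high-signal arrays alone. FANCI, the partner of FANCD2, had 115 and 93.6 with both hormones, 47.5 and 32.05 with estrogen alone, and 130.3 and 20.9 with placebo and was not tested. In FANCI the arrays of both hormones were above those of estrogen, and the placebo pair spanned them all.

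RAD1, a further subunit of the checkpoint clamp, had 185 and 204 with both hormones, 139 and 81.5 with estrogen alone, and 261 and 338 with placebo, with both estrogen arrays lowest. RAD17, which loads that clamp, had 163 and 244 with both hormones, 273 and 158 with estrogen alone, and 304 and 135 with placebo, and its groups overlapped. RAD9B, a relative of RAD9A, reached 262 on the second array of both hormones and stayed under the floor there. In homologous recombination RAD54B, a motor protein of this route, had 90.4 and 218 with both hormones, 61.8 and 71.9 with estrogen alone, and 39.9 and 211 with placebo. Its high-signal arrays alone passed the floor, although 2 of the low-signal arrays had larger signals. RAD54L, of the same family, had 16.2 and 23.7 with both hormones, 30.02 and 10.7 with estrogen alone, and 21.5 and 92.5 with placebo and was above the floor on 1 estrogen array, by a narrow margin. XRCC3, of the same route, had 43.8 and 192 with both hormones, 10.4 and 15.6 with estrogen alone, and 288 and 45.3 with placebo and was above it on 1 placebo array. ERCC6L, a helicase of dividing cells that matches the rule by name, had 47.1 and 91.5 with both hormones, 23.1 and 31.8 with estrogen alone, and 187 and 235 with placebo, above it on 1 placebo array as well.

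Of the remaining PARP genes, PARP3, which answers double-strand breaks, had 162 and 291 with both hormones, 201 and 217 with estrogen alone, and 109.9 and 336 with placebo, and PARP8 had 153 and 397 with both hormones, 186 and 74.7 with estrogen alone, and 255 and 211 with placebo. Both were tested. In PARP3 the groups overlapped in signal, and in PARP8 the estrogen arrays were below the placebo arrays in signal but not after normalization. PARP9, PARP14 and PARP16 were not tested. PARP9 had 97.7 and 40.8 with both hormones, 92.5 and 58.5 with estrogen alone, and 28.6 and 174 with placebo, PARP14 had 16.4 and 169.7 with both hormones, 32.7 and 73.6 with estrogen alone, and 39.5 and 87.2 with placebo, and PARP16 had 88.2 and 49.4 with both hormones, 123 and 197 with estrogen alone, and 56.7 and 139 with placebo. PARP9 and PARP16 passed the floor on the 3 high-signal arrays, and PARP14 on those of estrogen alone. Among genes never above the floor, MSH4 had 30.2 and 28.9 with both hormones, 3.05 and 9.78 with estrogen alone, and 67.2 and 11.1 with placebo, and MSH5 had 20.8 and 39.5 with both hormones, 14.1 and 8.72 with estrogen alone, and 194 and 43.8 with placebo. By their strongest probe set PARP11, PARP12, RAD51B and FANCD2OS ranged from 2.79 to 164 over the 6 arrays.

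**Figure D2:**
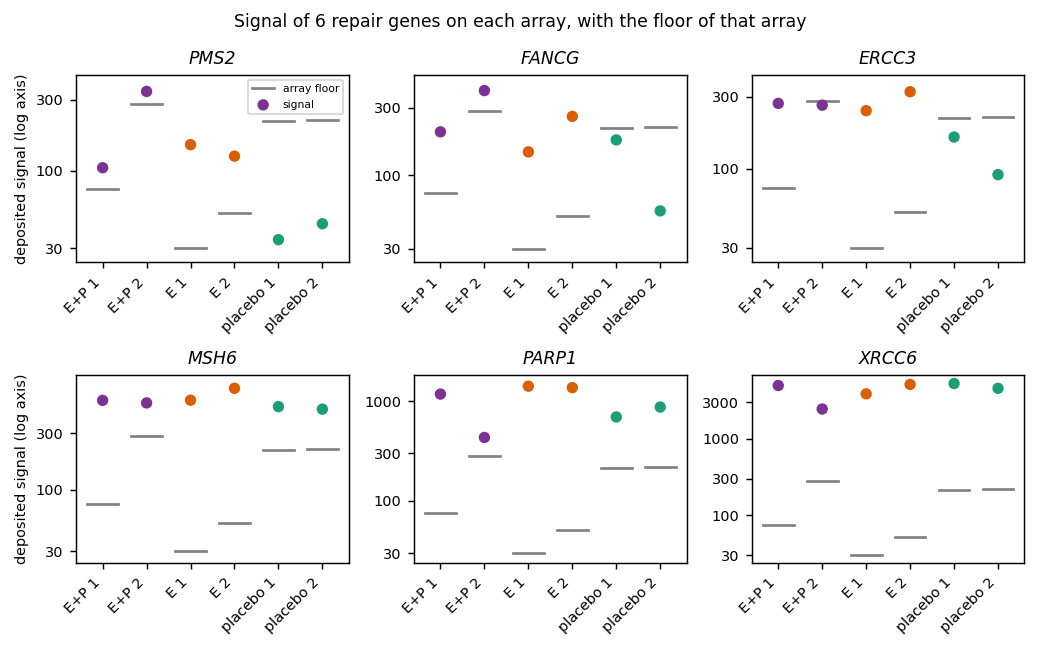
Deposited signal (log axis) of 6 repair genes, each by its probe set of highest mean, on the 6 arrays (E+P for estrogen and progesterone, E for estrogen), with colored points for signals and gray bars for the floor of each array. PMS2 points lie above the floor on the 4 hormone arrays and below it on both placebo arrays, and MSH6 lies between 480.4 and 722 on all 6.

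Estrogen and progesterone set against placebo addresses the effect of the combined treatment. PMS2 stood highest, at 2.46 ± 0.83 log2 units (± SE, n = 2 monkeys in each group). FANCG, a member of the Fanconi core complex, stood at 2.001 ± 0.87, with signals of 203 and 398 with both hormones, 146 and 261 with estrogen alone, and 178 and 55.7 with placebo. ERCC3, a helicase that opens the strands around a lesion, stood at 1.41 ± 0.83, with signals of 272 and 264 with both hormones, 243 and 325 with estrogen alone, and 163 and 91.6 with placebo. In these 3 genes both placebo arrays were below the floor, so only a bound can be given: at least 1.32-fold higher for PMS2, 1.96-fold for FANCG and 1.48-fold for ERCC3, the last with 1 of the arrays of the combined treatment above its floor. These bounds hold on the normalized scale only. In deposited signal the first array of both hormones, at 105 for PMS2 and 203 for FANCG, was below both placebo floors, 216 and 221. Both ERCC3 signals of the combined treatment were above those floors. In the other direction XRCC5 stood at -2.11 ± 1.05, MUTYH at -1.99 ± 0.997 and RAD9A, a subunit of the checkpoint clamp, at -1.34 ± 0.91, with RAD9A signals of 219 and 146 with both hormones, 70.1 and 180.00 with estrogen alone, and 301 and 511 with placebo. In all 6 genes the arrays of the 2 groups did not overlap after normalization, which is how they were chosen.

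None passed the test: limma gave adjusted p = 0.992 for each of them. It called 0 of 49 member probe sets at adjusted p under 0.05, against 0% of all 26383 tested. At an unadjusted p under 0.05 it had 2 of 38 member genes, PMS2 and FANCG, where the share among all 9781 genes was 2.38%. That count fell without the first estrogen array and rose without the first array of the combined treatment. The share of all genes was not counted in those fits. Arrays did not overlap with 6 member genes higher and 7 lower, 15.8% and 18.4%, against 11.7% and 12.7% of all genes. The median log2 difference of the 38 genes was 0.03, with 20 (52.6%) above 0. The median of all genes was -0.10, with 46.2% above 0. With arrays centered on their medians in place of quantile normalization, 64.1% of member genes were above 0, and the median of all genes moved to 0.34. Without the second array of the combined treatment and with no filter, chosen after seeing the data, the differences were 1.95 for PMS2, 1.69 for FANCG, 1.83 for ERCC3, -0.77 for XRCC5, -0.74 for MUTYH and -0.71 for RAD9A. RAD9A stood at -2.08 without the first and -0.79 without the second placebo array.

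Estrogen and progesterone set against estrogen addresses what progesterone added. FANCB, another core complex member, stood highest at 2.33 ± 1.15 (± SE, n = 2 monkeys each), with signals of 79.6 and 645 with both hormones, 27.6 and 43.7 with estrogen alone, and 439 and 222 with placebo. Both estrogen arrays were below the floor, which leaves a bound of at least 4.53-fold higher for the mean of both hormones. That bound rests mainly on the second array of the combined treatment and makes no allowance for the spread between animals. Normalized log2 values of FANCB were 6.99 and 10.30 with both hormones, against 6.28 and 6.34 with estrogen. XPA stood at -2.09 ± 1.15, PARP6, an ADP-ribosyltransferase, at -2.08 ± 1.17, XRCC5 at -1.81 ± 1.05 and ERCC4 at -1.13 ± 0.81. For ERCC4 neither array of the combined treatment reached the floor, which bounds it at 1.07-fold lower or more, and its groups separated only after normalization. PARP6 signals were 241 and 29.6 with both hormones, 293 and 566 with estrogen alone, and 205 and 36.4 with placebo, so its second array of both hormones was the lowest of the 6.

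Here too limma called 0 of 49 member probe sets, as it called 0% of all, with adjusted p = 0.799 for each of the 5 genes, and 0 of 38 member genes had an unadjusted p under 0.05, against 0.705% of all genes. More member genes had such a p without the first array of the combined treatment, where the share of all genes was not counted. Groups did not overlap for 5 member genes higher and 7 lower, 13.2% and 18.4%, against 13.5% and 17.9% of all genes. The member median was -0.13, with 16 of 38 (42.1%) above 0, and the median of all genes was -0.44 with 34% above 0. With median centering 20.5% of member genes were above 0, and the median of all genes was -1.14. For FANCB, XPA, PARP6 and XRCC5 the difference shrank when 1 animal was left out. Without the second array of the combined treatment and with no filter the values were 0.65 for FANCB, -0.30 for XPA, -0.53 for PARP6, -0.44 for XRCC5 and -1.04 for ERCC4. Without the first array of that treatment, so that the second stood alone and was assumed to vary like the other groups, limma called 10 of 51 member probe sets (19.6%) and 13.6% of all 26383. Of the 10, 7 were lower than with estrogen, in XPA, XRCC5, UNG, MUTYH, RAD21, RAD23B and ERCC5, and 3 were higher, in FANCB, ERCC8 and LIG3. Of the 3599 called among all probe sets, 2341 were lower and 1258 higher. The called probe sets of ERCC5, RAD23B and LIG3 were not the strongest of their genes. The strongest ERCC5 probe set had a signal of 434 on that second array, against 95.01 and 129.9 with estrogen, the opposite direction to the called one. XPA stood at -3.88 in that fit, with adjusted p = 0.0347 from limma.

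Estrogen set against placebo addresses the effect of estrogen by itself. Its larger differences were partly in the same genes, measured against the same placebo arrays. PARP6 stood at 2.38 ± 1.17 (± SE, n = 2 monkeys each), PMS2 at 2.32 ± 0.83, ERCC3 at 1.75 ± 0.83 and FANCG at 1.62 ± 0.87. For all 4 both placebo arrays were below the floor and both estrogen arrays above it, with bounds of at least 2.397-fold, 1.19-fold, 1.87-fold and 1.501-fold higher in that order. These bounds too hold on the normalized scale. In deposited signal PMS2 with estrogen, at 149.6 and 125, was below both placebo floors, 216 and 221, as was FANCG on the first estrogen array, at 146. PARP6 and ERCC3 signals with estrogen were above those floors. FANCG groups overlapped in deposited signal and separated only after normalization. On the lower side FANCB stood at -1.93 ± 1.15, under the floor with estrogen and at least 3.43-fold lower, and PARP15, another ADP-ribosyltransferase, at -1.33 ± 0.83, with signals of 82.4 and 140.5 with both hormones, 39.6 and 53.99 with estrogen alone, and 345 and 224 with placebo. PARP15 passed the floor on 5 arrays. Single placebo arrays moved these values: without the first and without the second they were -1.17 and -2.87 for FANCB, -0.85 and -1.95 for PARP15, 3.47 and 1.5005 for PARP6, 2.33 and 1.02 for FANCG, 2.19 and 1.498 for ERCC3 and 2.21 and 2.45 for PMS2. FANCB without the first placebo array is a smaller difference than its bound, which makes no allowance for the spread between animals.

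None of the 6 passed, with adjusted p from limma between 0.635 for PMS2 and 0.681 for PARP15. Limma called 0 of 49 member probe sets and 0% of all 26383. PMS2 was the 1 member gene of 38 with an unadjusted p under 0.05, at 0.0196, where 4.92% of all genes had one. Each SE and p here uses a spread estimated over all groups together, the pair of the combined treatment included. With estrogen and placebo fitted alone, 6 of 38 member genes had an unadjusted p under 0.05, and 0 members were called. The like fit of the combined treatment and placebo alone took its count from 2 to 0. Leaving out 1 array moved the count for estrogen minus placebo in both directions. The share of all genes under these settings was not counted. Groups did not overlap for 13 member genes higher and 9 lower, 34.2% and 23.7%, against 30.6% and 19.8% of all genes. The member median was 0.22, with 22 of 38 (57.9%) above 0, against 0.28 for all genes with 60.6% above 0. With median centering 84.6% of members were above 0, and the median of all genes was 1.54. Low signal marks both arrays of placebo and high signal both of estrogen, and treatment and signal cannot be told apart in this pair of groups. With the signal class as a covariate, which takes the class difference from the pair of the combined treatment, PARP6 stood at -0.83 and FANCB at 1.38, both turned in sign. PMS2 stood at 3.32, FANCG at 2.34, ERCC3 at 1.08 and PARP15 at -1.69 in that fit.

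**Figure D3:**
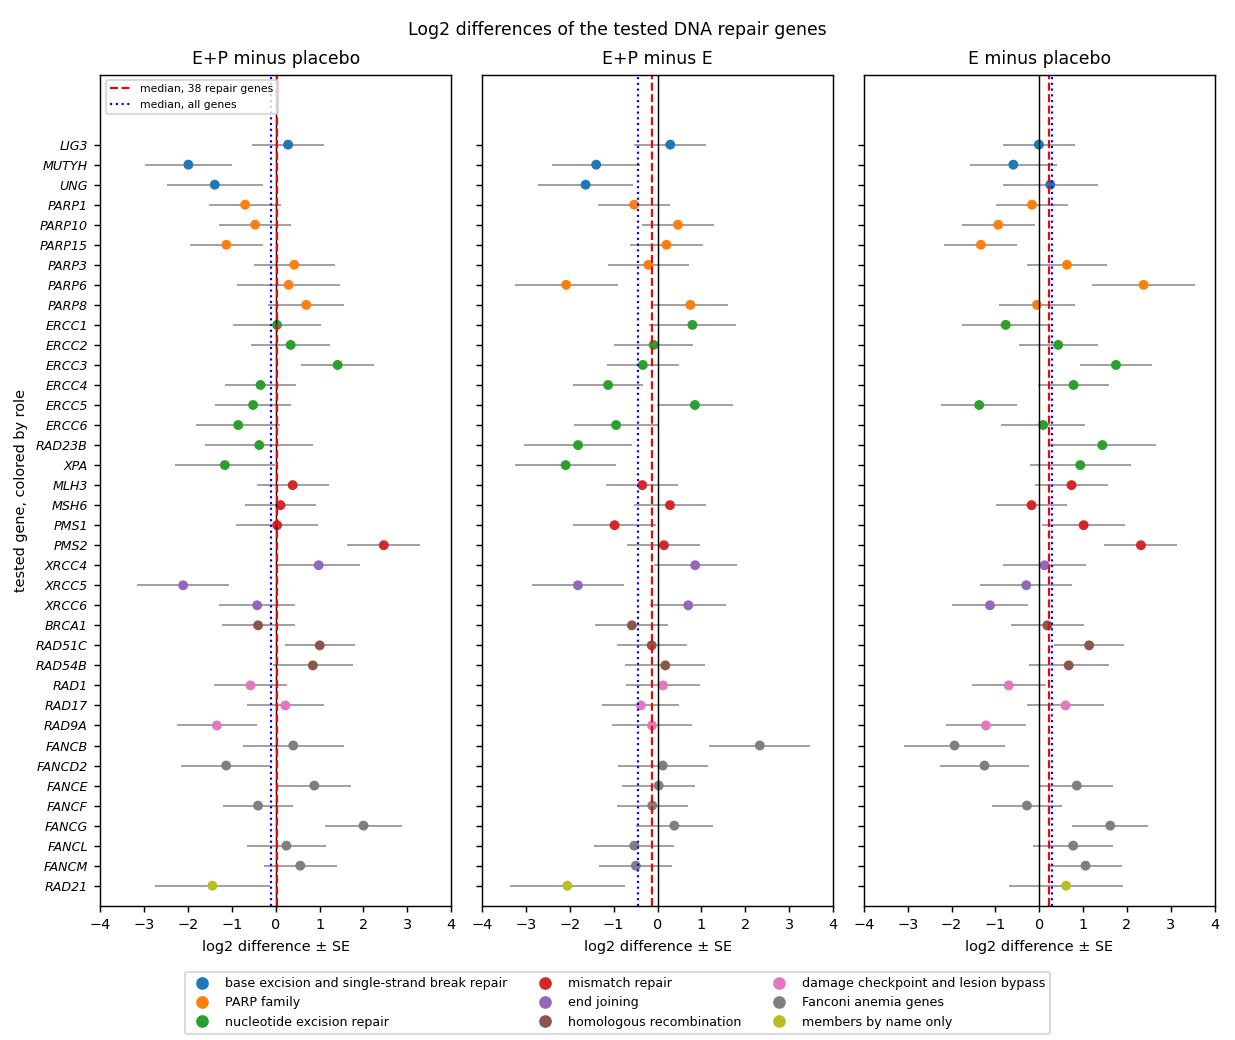
Log2 difference with its moderated SE (horizontal axis) of the 38 tested repair genes (rows, colored by role), for estrogen and progesterone minus placebo, estrogen and progesterone minus estrogen, and estrogen minus placebo. The red dashed line marks the median of the repair genes (0.03, -0.13 and 0.22 from left to right) and the blue dotted line that of all 9781 genes (-0.10, -0.44 and 0.28).

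By route, medians of few genes were as follows for estrogen minus placebo. They stood at 0.87 for 4 mismatch repair genes, 0.77 for 7 Fanconi genes, 0.67 for 3 homologous recombination genes and 0.60 for 8 nucleotide excision repair genes. They were -0.01 for 3 base excision genes, -0.11 for 6 PARP genes, -0.30 for 3 end joining genes and -0.70 for 3 checkpoint genes, and RAD21 alone stood at 0.61. For estrogen and progesterone minus placebo, 4 of 4 mismatch repair genes were above 0 with a median of 0.25, 5 of 7 Fanconi genes with 0.40, and 2 of 3 homologous recombination genes with 0.85. The median was -0.09 for PARP genes with 3 of 6 above 0, -0.36 for nucleotide excision repair with 3 of 8, -0.42 for end joining with 1 of 3 and -0.57 for checkpoint genes with 1 of 3, and RAD21 alone stood at -1.44. Base excision genes had a median of -1.39 there, with 2 of 3 below 0, and both of those, MUTYH and UNG, were lowest on the second array of the combined treatment. The medians for estrogen and progesterone minus estrogen were -1.40 for base excision, -0.64 for nucleotide excision, -0.10 for mismatch repair, -0.13 for homologous recombination and for the checkpoint, -0.0018 for PARP genes, 0.026 for Fanconi genes and 0.70 for end joining, with RAD21 at -2.06. These medians cover genes that passed the filter, and no route was tested as a group.

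Where a gene had several tested probe sets, they often disagreed. Of 9 such genes, the sign of the difference varied among probe sets in 5 for estrogen and progesterone minus placebo, in 4 for estrogen and progesterone minus estrogen, and in 4 for estrogen minus placebo. The share over all genes with several tested probe sets was not counted, so these counts are not a trait shown for repair genes. The second ERCC3 probe set stood at -2.48 for estrogen minus placebo, against 1.75 for the strongest, with signals of 51.2 and 344 with both hormones, 6.11 and 64.8 with estrogen alone, and 309 and 363 with placebo. That probe set was above the floor on the 3 low-signal arrays and on 1 estrogen array. ERCC5 probe sets stood at -1.37 and 1.66 in the same comparison, the second of these with signals of 323 and 27.8 with both hormones, 359 and 866 with estrogen alone, and 162 and 255 with placebo. XRCC6 probe sets ran from -1.12 to 0.77 and XRCC5 from -0.30 to 1.34. Probe sets of MLH3, which ran from 0.73 to 2.14, and of RAD23B, from 0.29 to 2.27, shared a sign in that comparison, as did those of FANCM, RAD17 and RAD21. The 2 other PMS2 probe sets were below the floor on all 6 arrays.

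**Figure D4:**
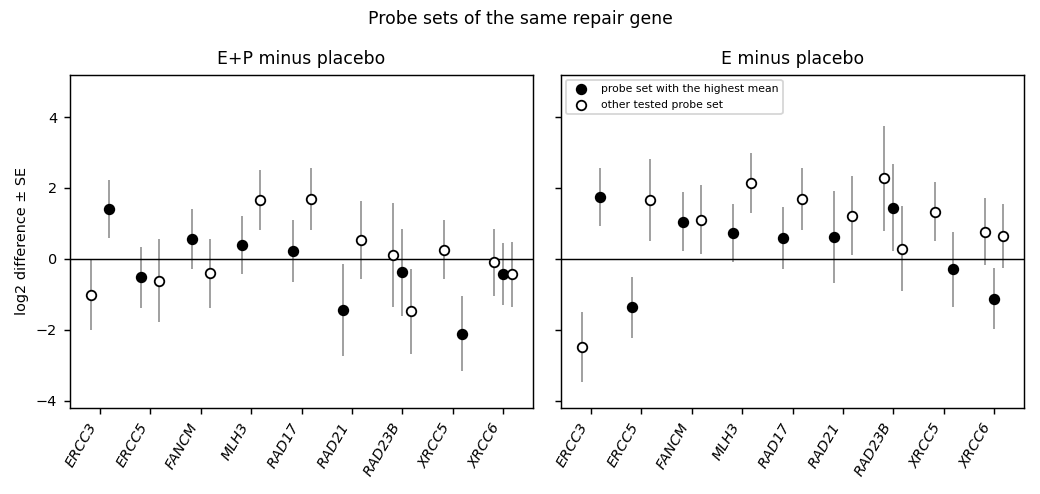
Log2 difference with its moderated SE (vertical axis) for every tested probe set of the 9 repair genes that had more than 1 (horizontal axis), for estrogen and progesterone minus placebo on the left and estrogen minus placebo on the right. Filled points are the probe set of highest mean and open points the others, and the 2 ERCC3 points lie on opposite sides of 0 in both panels.

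Further repair and damage response genes outside the members were read from a list of 79, of which 55 were named on the array and 45 tested. For estrogen and progesterone minus placebo 20 of 45 were above 0 (median -0.10), for estrogen and progesterone minus estrogen 18 (median -0.32), and for estrogen minus placebo 28 (median 0.21). Limma called 0 of them in each comparison, as it called 0% of all probe sets. At an unadjusted p under 0.05 it had 0, 0 and 2 in that order, against 2.38%, 0.705% and 4.92% of all genes. Those 2 were TOPBP1, an activator of the checkpoint kinase ATR, at 2.73 ± 1.06, and NEIL3, a glycosylase of oxidized bases, at -2.37 ± 0.92, both for estrogen minus placebo. TOPBP1 did not reach the floor with placebo and was at least 2.24-fold higher with estrogen, and NEIL3 did not reach it with estrogen and was at least 4.26-fold lower. TOPBP1 stood at -0.10 with the signal class as a covariate, and NEIL3 at -2.87. PCNA, the sliding clamp of replication and repair, had 748 and 151 with both hormones, 644 and 619 with estrogen alone, and 103 and 267 with placebo, and stood at 1.99 ± 1.04 for estrogen minus placebo, but at -0.58 with the signal class as a covariate. Without the first and without the second placebo array PCNA stood at 1.33 and 2.905, and NEIL3 without the second at -3.54. Normalized log2 values of NEIL3 were 9.55 and 7.56 with placebo and 6.17 and 6.20 with estrogen. The second placebo array was thus closer to estrogen, and the NEIL3 bound makes no allowance for that spread.

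Against placebo the smallest unadjusted p of these genes with both hormones were for POLD3, a polymerase subunit, at 2.13 ± 1.15, the end joining nuclease DCLRE1C at -2.29 ± 1.25, and TP53BP1, which steers breaks toward end joining, at -2.15 ± 1.19. TP53BP1 signals were 1598 and 85.5 with both hormones, 1847 and 1791 with estrogen alone, and 948 and 791 with placebo. Against estrogen they were for TP53BP1 at -2.11 ± 1.19, HUS1, a checkpoint clamp subunit, at 1.82 ± 1.11, and PRKDC, the kinase that Ku recruits to broken ends, at -1.57 ± 1.03. PRKDC signals were 1123 and 168 with both hormones, 1545 and 1169.6 with estrogen alone, and 459 and 551 with placebo. Without the second array of the combined treatment and with no filter these were -0.16 for TP53BP1, 0.16 for HUS1 and -0.17 for PRKDC against estrogen. Against placebo they were 0.86 for POLD3, -0.42 for DCLRE1C and -0.20 for TP53BP1. Without the first and without the second placebo array POLD3 stood at 0.86 and 3.55 and DCLRE1C at -1.42 and -3.33.

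The medians over repair genes moved with single arrays. For estrogen and progesterone minus placebo the median ran from -0.30 without the first placebo array to 0.21 without the second array of the combined treatment. For estrogen and progesterone minus estrogen it ran from -0.19 to -0.05, and for estrogen minus placebo from -0.22 without the first placebo array to 0.42 without the second array of both hormones. Animals of a group differed from each other by a median of 0.79 log2 units over the 38 genes with both hormones, 0.41 with estrogen and 0.82 with placebo. At least 2 log2 units separated the pair in 10 genes with both hormones, 1 with estrogen and 2 with placebo. The largest such gap was 4.37 for RAD21 with both hormones.

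**Figure D5:**
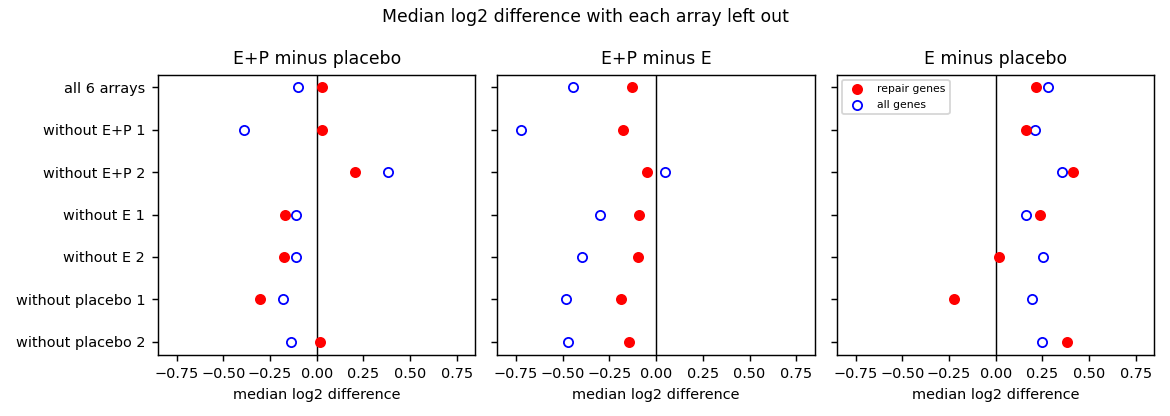
Median log2 difference (horizontal axis) over repair genes (red filled) and over all named genes (blue open), for the 3 comparisons, with all 6 arrays and with each array left out in turn (rows). For estrogen minus placebo the repair gene median turned to -0.22 without the first placebo array, while that of all genes stayed above 0 in every row.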

How the data were processed

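Values in the deposited table are linear intensities, and since the mean of every array, trimmed by 2% at each end, was about 200, the authors had scaled the arrays to a common target. RNA came from a column microkit and was biotin-labelled, per the labels' protocols. How probes were summarized, and any detection call, is not given in the sources used here. Groups and replicate numbers were read from the sample titles.

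Intensities plus 16 were taken to log2 and quantile normalized without the 99 control probe sets. The brighter 50% of probe sets by mean, 26383, were fitted with limma 3.58.1 in R 4.3.3, a mean per group over all 6 arrays, 3 residual degrees of freedom, two-sided tests and Benjamini-Hochberg adjustment over all of them, with a threshold of 0.05. Differences on the log2(value + 16) scale come out too small for dim probe sets. For each gene the tested probe set of highest mean was used, or without one the highest mean of all. Of the member probe sets, 49 for 38 genes were tested. An exact permutation test of 2 against 2 cannot go below 0.333 and was not used. The fit was tested on simulated data over 26383 probe sets, where it recovered 66% of changes of 4 log2 units and 4% of changes of 2 for estrogen minus placebo.

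For a bound, the brighter group's normalized mean was set against the dimmer group's arrays, each at its floor or its own value if higher, with no allowance for the spread between animals. Symbols are those of the array annotation, and all 105 member probe sets matched the RefSeq gene table by gene number. Positions and sequences are not given, since no genome of the annotation's build was used here. Named genes were a core of 21 genes of the rule, where on the array, the 6 smallest unadjusted p per comparison among members with groups that did not overlap and a log2 difference of at least 1 in size, members above the floor on all 6 arrays, and 3 further repair genes per comparison. Other genes with values were added to describe each route. The members, lists, floor and signal class were chosen with earlier results of these data known.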

Additional observations from a re-analysis of the deposited data

How the results depend on the processing

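Members were called under 1 alternative only: as arrays were left out, the count for estrogen and progesterone minus estrogen ran from 0 to 10, with 10 without the first array of estrogen and progesterone. Array weights called 434 of all probe sets for estrogen minus placebo, against 0 in the fit reported, and 0 members. The median over repair genes for estrogen minus placebo, 0.22, became 0.61 over every tested member probe set, 0.60 with a filter of 2 arrays above the floor, 1.28 with median centering, 0.031 with no normalization between arrays, 0.13 with an offset of 64 and 0.10 with the signal class as a covariate, and ran from -0.22 to 0.42 as arrays were left out. For estrogen and progesterone minus estrogen, -0.13 became -0.35 over every probe set, -0.27 with a filter of 2 arrays above the floor, -0.77 with median centering and, turned in sign, 0.028 with no normalization. For estrogen and progesterone minus placebo, 0.03 became -0.23 with no normalization and ran from -0.30 to 0.21 as arrays were left out. The cause of these shifts was not tested.

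Of 300 values of named members under an alternative, 292 kept their direction and side of the threshold. Another 5 turned in sign, and the rest passed the threshold in the same direction. Those that turned were ERCC3 by its other probe set, -2.48 for estrogen minus placebo and -1.03 for both hormones minus placebo, XRCC5 by its other probe set, 0.26 for both hormones minus placebo, and, with the signal class, FANCB at 1.38 and PARP6 at -0.83 for estrogen minus placebo. Of 167 such values of the further repair genes, 160 kept both, 4 turned and the rest passed the threshold in the same direction. PCNA turned to -0.58 and TOPBP1 to -0.10 with the signal class for estrogen minus placebo. DCLRE1C turned to 1.27 by another probe set for both hormones minus placebo, and TP53BP1 to 0.53 by another for both hormones minus estrogen. With the replicate number as a replicate block, 0 members were called in each comparison and the medians stayed as given, while member genes with an unadjusted p under 0.05 numbered 2, 1 and 0 for estrogen against placebo, the combined treatment against placebo and the combined treatment against estrogen in that order. Deviations of animals with the same number correlated at -0.0633 to 0.0822, so the numbers were not taken as pairs.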
